A study of Mus musculus with 40 samples.

Results

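The data described here compare 4T1 primary tumors of mice given chitin together with anti-PD-1 with 4T1 primary tumors of untreated mice, across all genes listed in a table of RNA-sequencing values. The tumors were chosen by their labels, namely chitin + anti-PD-1 tumors 1 to 5 and untreated tumors 1, 2, 4 and 5, which are 9 of the 39 tumors in the table. Untreated tumor 3, which the authors removed, was not analysed here. The study tested in 2 intraductal models of triple-negative breast cancer, based on 4T1 and 66cl4 cells, whether blocking chitinase-like proteins with chitin particles alters the response to immune checkpoint blockade. In both groups luciferase-expressing 4T1 cells had been placed into the mammary ducts of wild-type female BALB/c mice that had nursed a litter, and tumors were taken at 5 w post-inoculation (p.i.). Treated mice received intraperitoneal injections of 1 mg chitin every 3 d and of 200 µg anti-PD-1 (clone RMP1-14) weekly, from 3 w until 5 w p.i. Controls are called untreated in the labels, which name no sham injection for them. The ages of the mice are not in the labels. All tumors come from 1 cell line, and the RNA is that of whole tumors, with cancer cells, immune cells, stroma and adjoining mammary gland together. In such bulk RNA, fewer cells of a type and less RNA per cell cannot be told apart.

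Anti-PD-1 keeps the inhibitory receptor PD-1 on T cells from binding its ligands. Chitin is a polymer bound by chitinases and by chitinase-like proteins, which in mice include those encoded by Chil1 and Chil3 and are made by macrophages, neutrophils and epithelium. 4T1 tumors are known for the granulocytes they mobilise through colony-stimulating factors and chemokines. Neutrophil genes fall into those of secretory granules made early in maturation, surface receptors of mature cells and cytosolic calcium-binding proteins.

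No gene differed after adjustment in this comparison. Csf2, a growth factor of myeloid cells, had the smallest unadjusted p in limma, and several genes of neutrophils had higher treated means. The 250 bases before a RefSeq start of Csf2 and of 3 neutrophil genes are shown (GRCm38.p6, 5′ to 3′ on the strand of the gene). For Cd177 the start used lies inside the annotated gene, which reaches to 24760334, so its window overlaps the gene. These windows are shown because the genes, picked by their values in these same tumors, had higher means in the treated tumors. Capitals mark matches on either strand to TTGCNNAA, bound by C/EBP factors of granulocytes, to AGGAAGT, bound by PU.1, and to TATAAA.
Csf2, chr11:54249900-54250149, minus strand: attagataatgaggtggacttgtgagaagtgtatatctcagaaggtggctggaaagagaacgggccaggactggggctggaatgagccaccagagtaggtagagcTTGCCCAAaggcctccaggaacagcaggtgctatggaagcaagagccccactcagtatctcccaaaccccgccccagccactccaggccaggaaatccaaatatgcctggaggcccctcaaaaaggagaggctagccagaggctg
Cd177, chr7:24760312-24760561, minus strand: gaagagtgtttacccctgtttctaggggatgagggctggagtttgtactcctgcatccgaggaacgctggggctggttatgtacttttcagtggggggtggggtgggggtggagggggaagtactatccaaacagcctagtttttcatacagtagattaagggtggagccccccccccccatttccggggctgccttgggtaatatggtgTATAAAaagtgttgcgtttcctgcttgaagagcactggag
Retnlg, chr16:48872358-48872607, plus strand: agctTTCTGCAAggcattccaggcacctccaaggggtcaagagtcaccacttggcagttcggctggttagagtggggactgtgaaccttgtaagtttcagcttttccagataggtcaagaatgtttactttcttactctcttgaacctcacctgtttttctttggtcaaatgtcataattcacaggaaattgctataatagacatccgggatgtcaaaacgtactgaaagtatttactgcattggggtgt
Mmp8, chr9:7558179-7558428, plus strand: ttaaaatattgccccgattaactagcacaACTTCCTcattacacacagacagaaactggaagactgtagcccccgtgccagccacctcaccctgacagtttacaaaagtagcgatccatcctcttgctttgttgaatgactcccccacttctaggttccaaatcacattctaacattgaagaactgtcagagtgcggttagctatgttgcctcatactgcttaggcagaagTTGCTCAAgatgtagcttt

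The C/EBP letters occurred 145 bases upstream of the start of Csf2, 246 bases upstream of that of Retnlg and 19 bases upstream of that of Mmp8. The PU.1 letters lay 221 bases upstream of Mmp8, and TATAAA 40 bases upstream of Cd177. Among 32851 mouse promoter windows of the same length, 9.56% held the C/EBP letters, 7.69% those of PU.1 and 12.4% TATAAA. These matches describe the sequence only.

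Values are given as normalized counts, which are reads divided by a size factor per tumor, or on the variance-stabilized (VST) scale, which is log2-like and on which 0 reads stand at 6.05. Differences are treated minus untreated means on the VST scale, with the standard error (SE) from limma, and they are smaller than log2 ratios for genes with few reads. Treated tumors had 5594719 to 9908975 reads on listed genes and untreated tumors 5105898 to 8732427, without a difference beyond the spread (two-sided exact permutation p = 0.524). Genes with 0 reads numbered 70 to 158 in treated and 110 to 293 in untreated tumors. Among the treated tumors, tumor 1 lay farthest from the others of its group, with a root mean square distance of 0.419 on the VST scale against 0.222 to 0.360 for the other treated tumors. Untreated tumors lay between 0.267 and 0.346. The cytokeratin gene Krt7, a marker of the epithelial tumor cells, had 2008 to 4584 normalized counts in the 9 tumors.

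No gene differed between treated and untreated 4T1 tumors after adjustment. The labels do not tie tumors to mice, so tumors of 1 group may share a mouse, and SEs and p-values that take them as independent may then be too small. With limma, 0 of 14318 genes passed an adjusted p of 0.05 (0% called), and the smallest adjusted p was 0.266, that of Csf2. At an unadjusted p of 0.05, 367 genes (2.56%) were counted, 203 with a higher mean (1.42%) and 164 with a lower mean (1.15%) upon treatment. limma-voom on the recovered reads likewise called 0 genes, with 299 at that unadjusted p. The differences were centred on 0, with 95% of genes between -0.32 and 0.35, and 24 genes differed by 1 or more, of which 19 were higher. The groups did not overlap for 134 genes (0.936%), 87 of them higher (0.608%) and 47 lower (0.328%) upon treatment. The values below therefore describe these 9 tumors, and none of the named differences passed the test of this comparison.

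Csf2, the gene of GM-CSF, had the smallest p of all genes. Its normalized counts were 43.3, 23.1, 22.8, 34.7 and 18.7 in treated tumors 1 to 5 and 3.55, 1.56, 7.29 and 2.62 in untreated tumors 1, 2, 4 and 5. These values rested on 53, 16, 18, 37 and 16 reads in treated and 3, 1, 8 and 2 reads in untreated tumors. Every treated tumor lay above every untreated one, with tumor 1 highest. On the VST scale the difference was 0.59 (SE 0.102, limma unadjusted p = 1.86e-05, adjusted p = 0.266), from 6.38 ± 0.108 (SD, n = 4) to 6.97 ± 0.157 (SD, n = 5). Over 29 alternatives its adjusted p ranged from 0.00299, when the 66cl4 tumors shared the limma fit, to 1. It was 0.899 with limma-voom on the recovered reads and 0.873 in limma at equal depth. The other colony-stimulating factors did not share this pattern. Csf3, the gene of G-CSF, had 149 to 887 normalized counts in treated and 115 to 416 in untreated tumors, and Csf1, the macrophage growth factor, 921 to 1669 and 1070 to 2040.

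Cd177, the gene of a neutrophil surface glycoprotein, followed with 92.4, 31.7, 48.0, 91.9 and 68.8 normalized counts in treated tumors 1 to 5 and 26.0, 17.2, 27.3 and 5.24 in untreated tumors 1, 2, 4 and 5. The groups did not overlap, and treated tumors 1 and 4 were highest. The difference was 0.63 (SE 0.140, limma adjusted p = 1, and 0.0429 to 1 over the alternatives, with the lowest when the 66cl4 tumors shared the fit). Mcemp1, a membrane protein gene expressed in mast cells and myeloid cells, had a treated mean of 68.1 ± 32.8 (SD, n = 5) against 23.6 ± 7.84 (SD, n = 4), with tumor 3 highest at 126. Pygl, glycogen phosphorylase of liver and leukocytes, had 396 ± 138 against 210 ± 47.1, with the lowest treated and the highest untreated tumor both at 261.

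Msln, which encodes the surface protein mesothelin, showed the largest difference among the 12 higher genes with the smallest p. It had 1073, 760, 399, 430 and 292 normalized counts in treated tumors 1 to 5 and 166, 263, 211 and 214 in untreated tumors. All treated tumors were above the untreated ones, with a difference of 1.00 (SE 0.289, adjusted p = 1, limma), which was 0.79 without treated tumor 1. F7, coagulation factor VII, differed by 0.76 with untreated tumor 5 inside the treated range. The remaining genes of this set were Abca6 (a lipid transporter, 0.30), 1110002E22Rik (0.56), Lrrn4cl (0.56), Ankrd33b (0.49), Ccdc73 (0.24) and Trim16 (a ubiquitin ligase, 0.22).

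**Figure D1:**
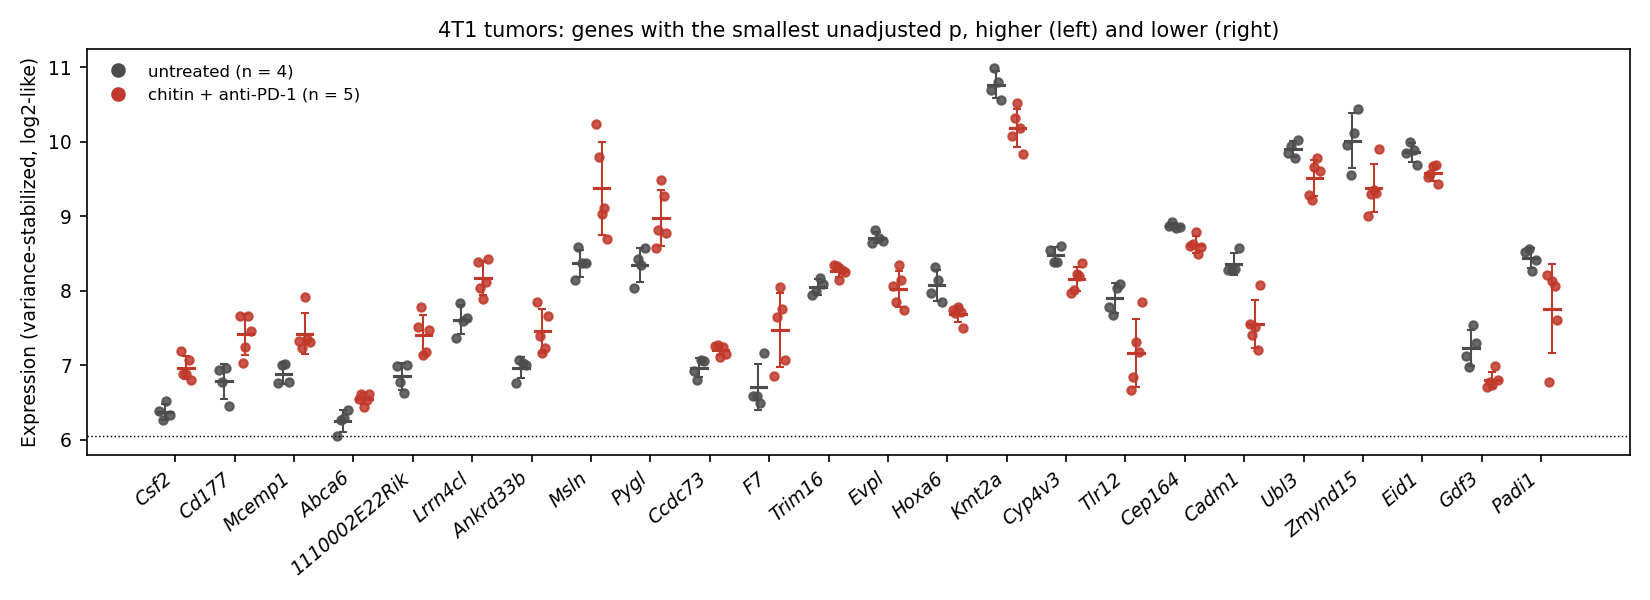
Expression on the VST scale (y axis, log2-like, dotted line at 0 reads) of the 12 genes with a higher and the 12 with a lower treated mean that had the smallest unadjusted p. Points are tumors, and bars are mean ± SD of 4 untreated and 5 treated tumors. The points of Csf2, Cd177 and Evpl do not overlap between groups, and those of F7, Tlr12 and Zmynd15 do.

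Evpl, the gene of envoplakin, a protein of desmosomes and of the cornified envelope, led the genes with a lower treated mean. Its normalized counts were 151, 117, 207, 166 and 101 in treated tumors 1 to 5 and 279, 328, 297 and 286 in untreated tumors 1, 2, 4 and 5. The untreated tumors lay close together and above all treated ones, with a difference of -0.68 (SE 0.171, limma adjusted p = 1, and 0.0429 to 1 over the alternatives, again lowest when the 66cl4 tumors shared the fit). Kmt2a, a histone H3 lysine methyltransferase, had 784 to 1337 against 1379 to 1908 normalized counts without overlap. Cadm1, a cell adhesion molecule, had a lowest value of 45 and a highest of 154 against 192 to 261, a difference of -0.80. Tlr12, a toll-like receptor gene, had 12.3 to 117 against 93.8 to 157, with treated tumor 5 inside the untreated range. The other genes of this set were Hoxa6, Cyp4v3, Cep164, Ubl3, Zmynd15, Eid1, Gdf3 and Padi1, with differences from -0.25 to -0.68.

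The largest differences belonged to genes that varied strongly within a group. Slpi, the secretory leukocyte protease inhibitor, had 603, 293, 1018, 1240 and 473 normalized counts in treated tumors 1 to 5 and 2283, 2050, 2632 and 2164 in untreated tumors, so that all untreated tumors were higher. Its difference was -1.63 (SE 0.756, adjusted p = 1, limma), the lowest of all genes. Hhip, an antagonist of hedgehog ligands, did not overlap either, with 140 to 1466 against 1523 to 2516. Lamb3 and Lama3, chains of the basement membrane protein laminin-332, had higher treated means without overlap, by 1.45 (SE 0.599) and 1.38 (SE 0.612). Lamb3 had 1053 to 2211 normalized counts in treated and 157 to 934 in untreated tumors. Sprr2a1 and Krt10, genes of keratinizing epithelium, differed by -1.36 and -1.29, but these values came from untreated tumor 5 with 3940 and 3164 normalized counts. Without it they were 0.06 and -0.18. Dmp1, a matrix phosphoprotein of bone, overlapped between groups, and so did Car3 (carbonic anhydrase of fat and muscle) and Hp (haptoglobin), which were highest in treated tumor 4.

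Of the chitinase-like genes, Chil3 had the largest difference of all genes, and it rested on 2 tumors. Its normalized counts were 9.81, 36.0, 1700, 1665 and 44.3 in treated tumors 1 to 5 and 16.6, 7.82, 6.38 and 87.8 in untreated tumors 1, 2, 4 and 5. Treated tumors 3 and 4 were far above all others, and the other 3 treated tumors lay within the untreated range. The difference was 1.65 (SE 0.708, limma adjusted p = 1) and ranged from 1.07 to 2.13 when single tumors were left out. Chil1 had 17.7 to 226 normalized counts in treated and 15.4 to 61.9 in untreated tumors, with a difference of 0.56 (SE 0.321). Chil4 was not listed. Among 6 measured genes of 12 on the list of chitinase-like and chitin-binding proteins, 3 had higher and 3 lower means. Clec7a, the receptor dectin-1, had 587 to 708 against 424 to 602 normalized counts. The genes of the type 2 response, which chitin is known to induce in other tissues, were split 6 higher and 4 lower among 10 measured, with a median of 0.20.

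**Figure D2:**
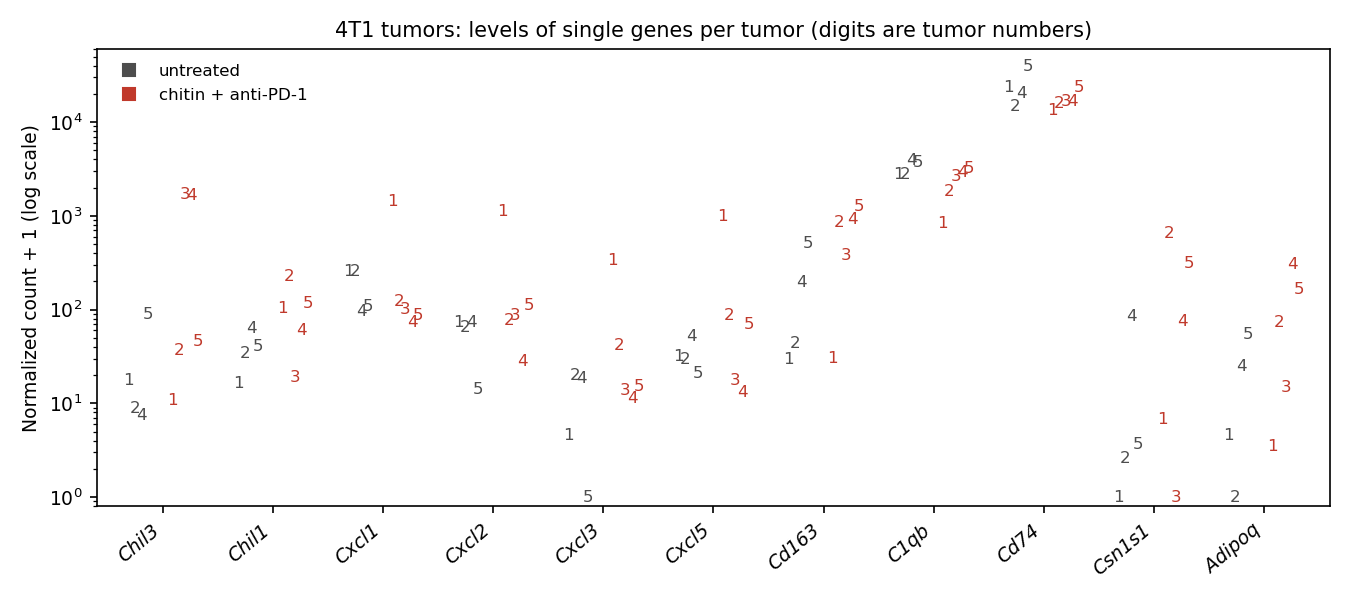
Normalized count plus 1 (y axis, log scale) of single genes, each digit being the number of a tumor, grey for untreated and red for chitin + anti-PD-1. Chil3 is high in treated tumors 3 and 4, the Cxcl genes are high in treated tumor 1, Csn1s1 is highest in treated tumor 2 and Adipoq in treated tumor 4.

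Genes of neutrophils had higher means in the treated tumors. Of 16 genes on the list 13 were measured, and Ly6g, Mpo and Elane were not listed. Of the 13, 11 had a higher mean, against 49.6% of all genes, and 7 had a higher mean at an unadjusted p of 0.05, against 1.42% of all genes, while 0 passed the adjusted p in limma. The median difference was 0.63, against -0.00 over all genes. The count of 7 ranged from 4 to 9 as single tumors were left out, and it was 4 without untreated tumor 5. With only the compared groups fitted it was 5. The list mean lay 1.34, 0.19, 0.22, 0.88 and 0.62 above the untreated mean in treated tumors 1 to 5. These genes were measured in the same tumors and are not independent, and the list was chosen with earlier results of these data known.

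Retnlg, a resistin-like gene of granulocytes, had 295, 41.8, 133, 197 and 199 normalized counts in treated tumors 1 to 5 and 49.7, 46.9, 46.5 and 55.0 in untreated tumors. Treated tumor 2 was the lowest of all 9, and the other treated tumors were above all untreated ones. Mmp8, neutrophil collagenase, had 125, 34.6, 51.8, 153 and 56.0 against 34.3, 37.5, 41.0 and 9.17, again with treated tumor 2 inside the untreated range. Cxcr2, the receptor through which neutrophils follow CXC chemokines, had 288, 99.5, 99.9, 173 and 114 against 65.0, 84.4, 96.6 and 47.2. For Cxcr2 the groups did not overlap. The alarmin genes S100a8 and S100a9 differed by 1.16 (SE 0.450) and 1.19 (SE 0.505), with treated tumor 1 highest at 2719 and 4516 normalized counts. Ngp, a granule protein gene of immature granulocytes, differed by 0.80 (SE 0.332). Lcn2, which epithelium also makes, differed by -0.00, with 13884 normalized counts in treated tumor 1 and 729 to 3107 in the other treated tumors.

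**Figure D3:**
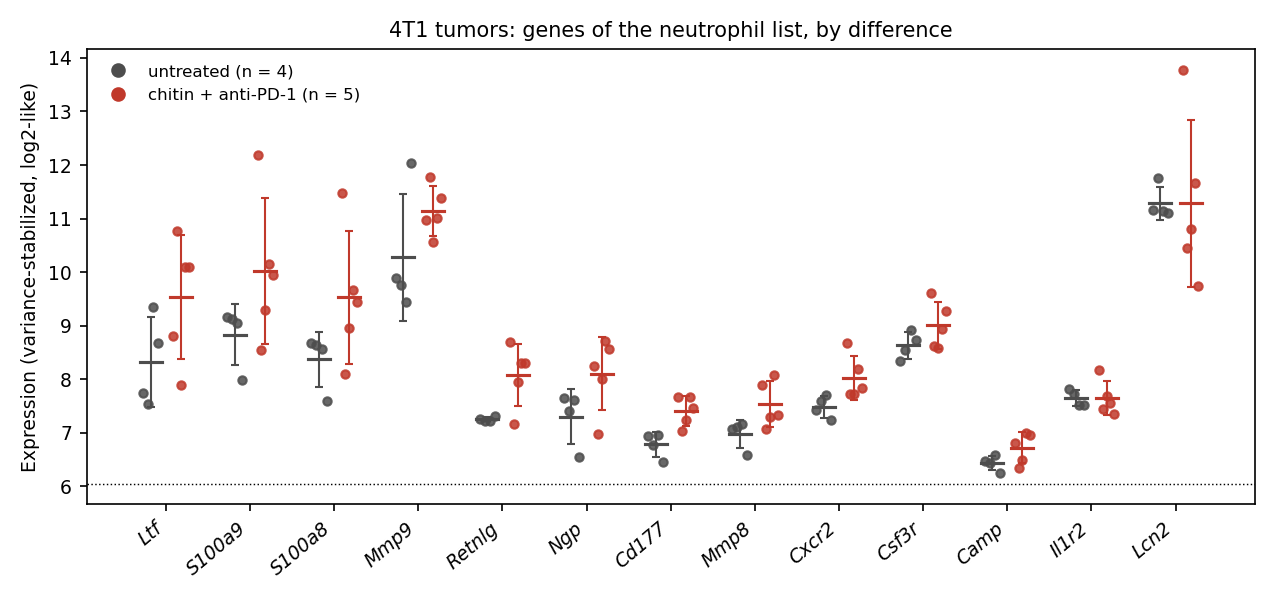
Expression on the VST scale (y axis, log2-like, dotted line at 0 reads) of the 13 measured genes of the neutrophil list, ordered by difference. Points are tumors, and bars are mean ± SD of 4 untreated and 5 treated tumors. The treated mean is higher for 11 genes, and Cxcr2 and Cd177 do not overlap between groups.

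The chemokines that attract neutrophils were set apart by 1 tumor. Cxcl2 had 1126 normalized counts in treated tumor 1, 27.2 to 108 in the other treated tumors and 13.1 to 72.1 in untreated tumors. Cxcl1 had 1430 in treated tumor 1 and 72.2 to 254 in the 8 other tumors, and Cxcl5 977 and 12.2 to 86.5. All 4 measured genes of this list had a higher treated mean, with a median difference of 0.69, which was 0.15 with 3 of 4 higher without treated tumor 1. The cytokines Il1a, at 947, and Il1b, at 2390 normalized counts, were highest in the same tumor. Of 12 measured myeloid cytokines, 8 had higher means, and 1, Csf2, had an unadjusted p below 0.05. The genes of Stat3 signalling were split 8 higher and 6 lower, with Osm (oncostatin M) at 216 in treated tumor 1 and 26.2 to 62.0 elsewhere.

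Of 13 measured CC chemokines, 7 had higher and 6 lower means, with a median of 0.04. Ccl6, made by macrophages and neutrophils, had 1568, 2454, 3547, 2400 and 1980 normalized counts in treated tumors 1 to 5 and 413, 1473, 1539 and 959 in untreated tumors. All treated tumors were higher, with a difference of 1.12 (SE 0.513, adjusted p = 1, limma). Ccl12, a monocyte attractant, differed by -0.69 (SE 0.307), with 29.4 to 213 against 152 to 216. Treated tumor 5 was the one treated tumor within the untreated range for Ccl12.

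Macrophage genes had lower means for 12 of the 15 measured, with a median of -0.35, and 0 of them had an unadjusted p below 0.05. Treated tumor 1 carried most of this: without it 8 of 15 were lower and the median was -0.06. Without treated tumor 5 the median was -0.55. C1qb, a complement component made by tissue macrophages, had 837, 1826, 2647, 2933 and 3213 normalized counts in treated tumors 1 to 5 and 2771 to 3940 in untreated tumors. Treated tumors 1 to 3 were below all untreated tumors, and tumors 4 and 5 were within their range. The F4/80 gene Adgre1 stood at 119 in treated tumor 1 and 336 to 926 in the 8 other tumors. Cd163, the scavenger receptor of resident macrophages, went the other way with a difference of 1.34 (SE 0.707), at 29.4 in treated tumor 1 and 375 to 1269 in the other treated tumors, against 28.4 to 509. Of 10 genes of dendritic cells 8 had lower means, among them Itgax, the CD11c gene, by -0.57 (SE 0.249, limma unadjusted p = 0.0342). The lysosomal proteases were split 3 higher and 5 lower.

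T cell genes had slightly lower means. Of 13 measured genes 12 were lower, with a median of -0.19, and 0 had an unadjusted p below 0.05. As single tumors were left out, the median ranged from -0.34 without treated tumor 5, with all 13 lower, to -0.05 without untreated tumor 5, with 10 of 13 lower. Cd8a, the co-receptor of cytotoxic T cells, had 62.2, 49.0, 167, 134 and 329 normalized counts in treated tumors 1 to 5 and 212, 113, 139 and 397 in untreated tumors 1, 2, 4 and 5. Treated tumors 1 and 2 were below all untreated tumors, the other treated tumors lay within the untreated range, and tumor 5 was highest in each group. Of the genes of cytotoxic lymphocytes 10 of 13 had lower means, led by Klrk1, the activating receptor NKG2D, at -0.45 (SE 0.223). Granzyme B (Gzmb) had 35.6 to 353 against 18.2 to 351. Genes of regulatory T cells (2 of 6 higher), B and plasma cells (3 of 7 higher) and mast cells (0 of 4 higher) had medians of -0.04, -0.03 and -0.10. Without untreated tumor 5 these medians were 0.10, 0.07 and 0.18, and 7 of 13 genes of cytotoxic lymphocytes were higher.

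Of 11 inhibitory checkpoint genes 2 had higher and 9 lower means, with a median of -0.12. Tigit, an inhibitory receptor of T and NK cells, was the one with an unadjusted p below 0.05 and had 123, 189, 59.4, 50.6 and 139 normalized counts in treated and 82.8, 25, 32.8 and 111 in untreated tumors. The groups overlapped, and the difference was 0.42 (SE 0.198). Entpd1, the ectonucleotidase CD39, differed by -0.12 (SE 0.208).

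Genes of antigen presentation and interferon response had lower means together. All 14 type I interferon response genes, all 9 genes of MHC class I presentation and all 8 of MHC class II presentation were lower, with medians of -0.17, -0.06 and -0.29, and none of them had an unadjusted p below 0.05. Of the 14 interferon gamma response genes 9 were lower, with a median of -0.02, but all 14 were higher without untreated tumor 5 and all 14 lower without untreated tumor 2. Cd74, the invariant chain of MHC class II, had 13294, 15934, 16480, 16448 and 23236 normalized counts in treated tumors 1 to 5 and 23684, 14731, 20217 and 39671 in untreated tumors. Untreated tumor 5 was the highest. Without it the class II median was -0.05 with 5 of 8 lower, 8 of 14 type I interferon genes were lower, and all 9 MHC class I genes were higher. Without untreated tumor 1, 7 of 9 MHC class I genes were higher. Irf7, the main inducer of type I interferon, differed by -0.56 (SE 0.347).

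**Figure D4:**
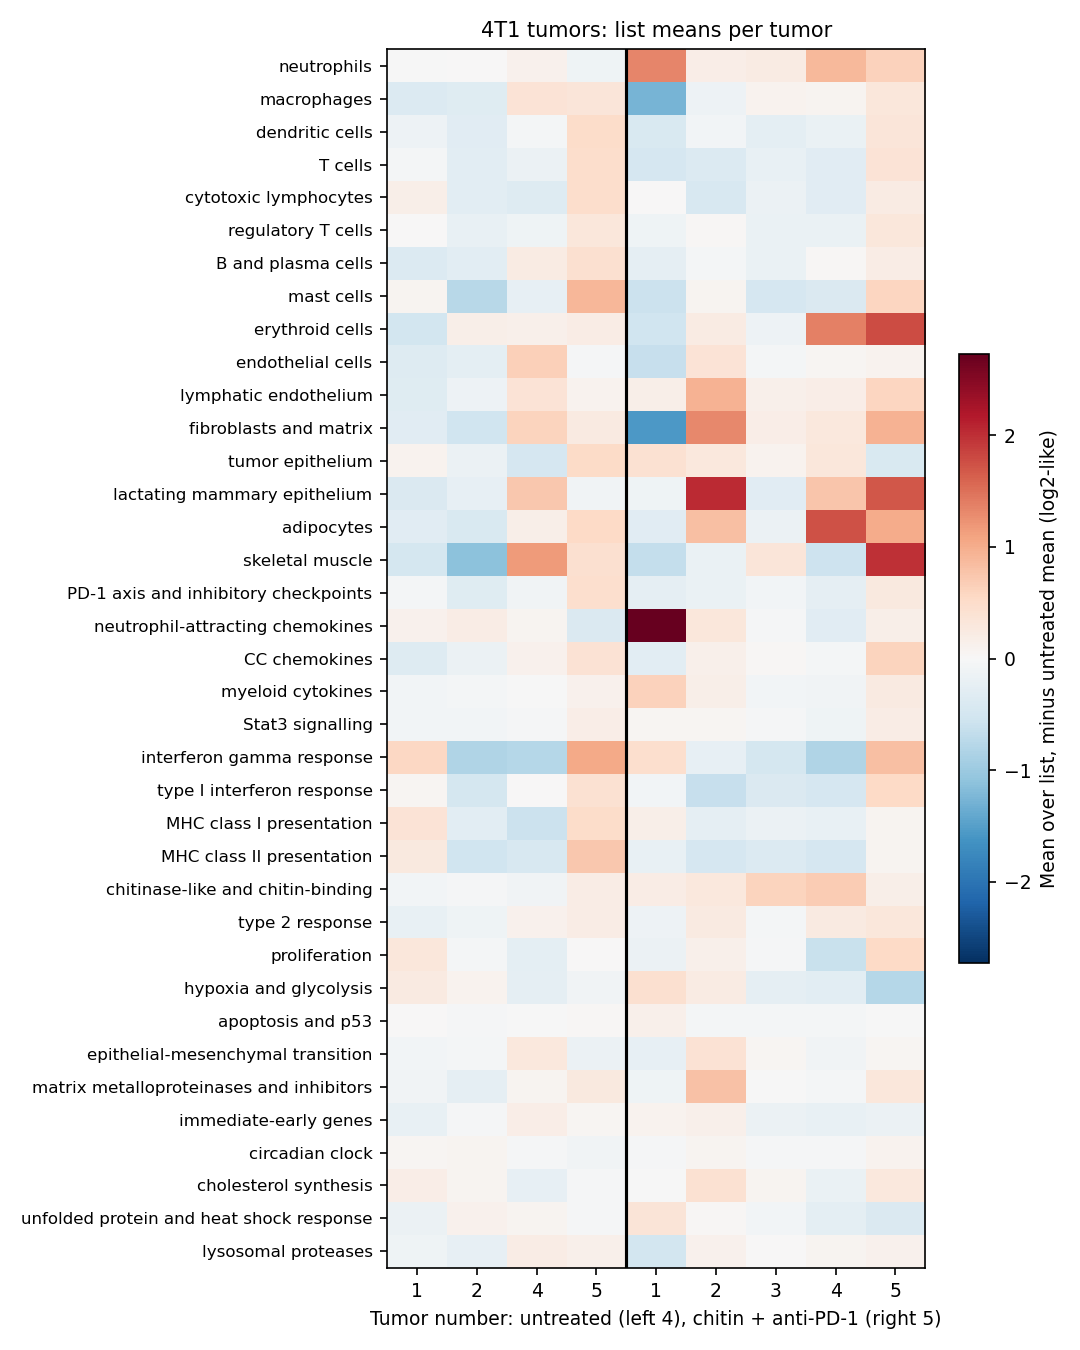
Mean over each of 37 gene lists (rows) in each tumor (columns), as difference from the mean of the untreated tumors on the VST scale, red for higher and blue for lower. Treated tumor 1 is high for neutrophil genes and their chemokines and low for macrophage and fibroblast genes, and untreated tumor 5 is high for lymphocyte and MHC class II genes.

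Genes of the tissue around the tumor varied widely among the treated tumors. All 11 measured adipocyte genes had higher means, with a median of 0.64, which was 0.35 without treated tumor 4. Adipoq, the adipocyte hormone adiponectin, had 2.45, 72.1, 13.9, 305 and 164 normalized counts in treated tumors 1 to 5 and 3.55, 0, 23.7 and 53.7 in untreated tumors. Treated tumors 2, 4 and 5 were above, and tumors 1 and 3 within, the untreated range. All 4 measured milk genes were higher, with a median of 0.82, which was 0.52 without treated tumor 2. Against untreated tumors, the adipocyte median was 0.65 with chitin alone and 1.54 with anti-PD-1 alone, and the milk gene median 0.94 and 1.97. The casein gene Csn1s1 had 5.73, 641, 0, 73.1 and 313 against 0, 1.56, 83.8 and 2.62, so that milk genes were high in treated tumors 2 and 5. All 3 measured erythroid genes had higher means, with the globin gene Hba-a1 at 7380 and 10930 normalized counts in treated tumors 4 and 5 and 897 to 2604 in the 7 other tumors. The erythroid median was 0.56, and 0.21 without treated tumor 5. The share of fat, gland, blood and muscle in these tumors, and its part in the other results, was not tested.

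Fibroblast and matrix genes had higher means for 13 of 15, with a median of 0.19, and treated tumors stood at both ends. Col1a1 had 1871 normalized counts in treated tumor 1, 69645 in tumor 2 and 19985 to 44598 in the other 3, against 9585 to 35144 in untreated tumors. Without treated tumor 2, and likewise without untreated tumor 2, 6 of 15 were higher, and without treated tumor 5 it was 8 of 15. Without treated tumor 1, 14 of 15 were higher with a median of 0.83, and without untreated tumor 4 all 15 were higher. Skeletal muscle genes were higher for 13 of 15, with a median of 0.19 and the highest values in treated tumor 5, without which all 15 were lower. Of 11 endothelial genes 3 were higher, and Flt1, a VEGF receptor, differed by -0.32 (SE 0.162). Without untreated tumor 4, 8 of the 11 were higher. All 4 measured lymphatic genes were higher, among them Lyve1 by 0.87 (SE 0.463). Of the 12 genes of tumor epithelium 9 were higher, led by Krt19 at 0.60 (SE 0.339).

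The combination was also set against each single treatment in the same limma fit. Against chitin alone, 0 genes passed the adjusted p and 445 (3.11%) had an unadjusted p below 0.05. Against anti-PD-1 alone, 0 passed and 1307 (9.13%) did so. These comparisons share the combination tumors with the main one. Csf2 had 12 ± 6.29 normalized counts with chitin and 12.8 ± 7.91 with anti-PD-1 (SD, n = 5 each), against 28.5 ± 10.2 (SD, n = 5) with both. Cd177 had 17.4 ± 6.01 with chitin, 30.9 ± 12.5 with anti-PD-1 and 66.6 ± 26.8 with both. Evpl, at 149 ± 41.8 with both, had 185 ± 18.5 with chitin and 230 ± 99.3 with anti-PD-1. The neutrophil list had median differences of 0.65 from chitin and 0.42 from anti-PD-1, and the T cell list -0.09 and -0.91. Against untreated tumors, the T cell median was -0.04 with chitin, 0.64 with anti-PD-1 and -0.19 with both. The neutrophil median against untreated tumors was -0.20 with chitin, 0.15 with anti-PD-1 and 0.63 with both. Ccl6, at 2390 ± 739 with both, had 851 ± 434 with chitin and 2395 ± 1246 with anti-PD-1. Some other named genes differed from untreated tumors by similar amounts with a single treatment. Kmt2a differed by -0.31 with chitin, -0.66 with anti-PD-1 and -0.58 with both, and Hoxa6 by -0.35, -0.49 and -0.39. In the same order, Dmp1 differed by -1.16, -1.27 and -1.03, and Lamb3 by 1.38, 0.48 and 1.45.

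The response to the combination was compared between the models over 8 groups of 39 tumors, where 4T1 and 66cl4 share no tumors. The SEs in this paragraph come from that fit of both models, whereas the 4T1 SEs given earlier came from 4T1 tumors alone. No gene differed after adjustment with limma (0 of 14318), and 782 (5.46%) had an unadjusted p below 0.05. In 66cl4 the neutrophil list had a median difference of -0.05, against 0.63 in 4T1. Msln differed by 1.00 in 4T1 and by -0.51 (SE 0.222) in 66cl4, a difference between models of 1.52 (SE 0.323, limma adjusted p = 0.332). Csf2 differed by 0.04 (SE 0.0860) in 66cl4, which left 0.55 (SE 0.125, limma adjusted p = 0.332) between models. Cd177 (0.68), Asns, asparagine synthetase (0.91), and 1110002E22Rik (0.98) completed the 5 genes with the smallest unadjusted p among those with a larger difference in 4T1. Evpl (-0.76), Cyp4v3 (-0.55), Zmynd15 (-1.08), Zfp113 (-0.42) and Ralgds (-0.62) were the 5 with the smallest unadjusted p in the other direction, and none of these genes passed the adjusted p.

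**Figure D5:**
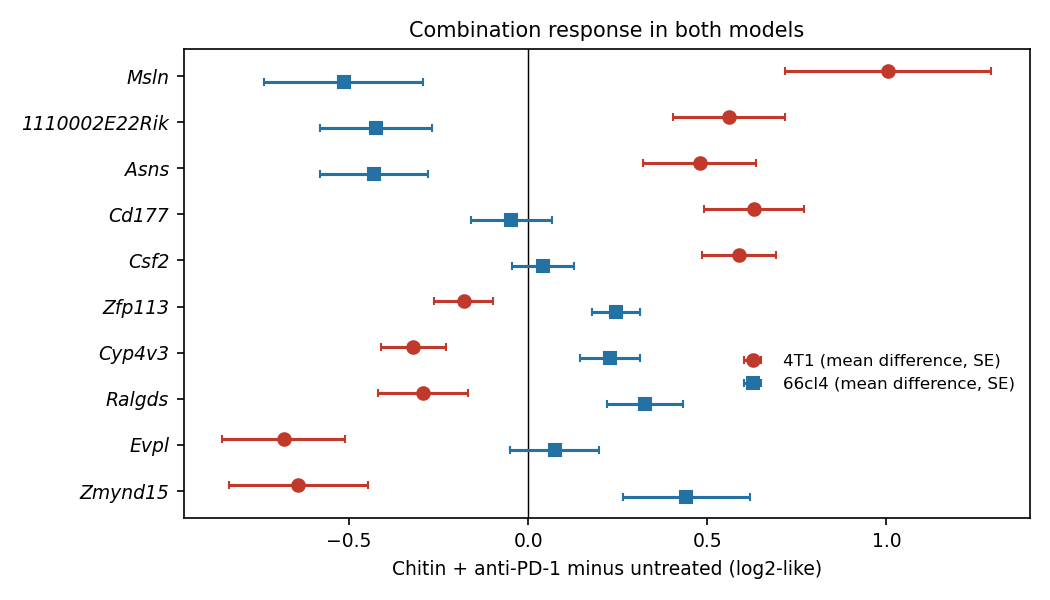
Difference between chitin + anti-PD-1 and untreated tumors on the VST scale (x axis, log2-like) in 4T1 (red circles) and 66cl4 (blue squares), as mean difference ± SE, for the 5 genes in each direction with the smallest p for the difference between models. Msln lies at 1.00 in 4T1 and at -0.51 in 66cl4, and Csf2 at 0.59 and 0.04.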

How the data were processed

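RNA of whole primary tumors was sequenced from stranded libraries, and the deposited table holds 14318 genes by Entrez identifier for 39 of 40 labelled tumors. Per the submitters' processing notes and the paper's methods, the authors aligned reads with HISAT2 to mm10, counted them per gene, left out genes with few reads and untreated 4T1 tumor 3, and deposited variance-stabilized values, which are log2-like, made with DESeq2. Tool versions are not given in the sources used here. The table leaves 0 columns without a sample.

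The transformation was inverted, which gave whole reads for 100% of the values (tolerance 0.001 reads) and a size factor per tumor. Depth was 5105898 to 14800352 reads on listed genes over the 39 tumors, which limits genes with few reads, and reads without molecular identifiers carry more than counting error. Cells had been placed into a pair of glands per mouse and the labels give no mouse for a tumor, so tumors, which were taken as replicates, may share a mouse.

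The deposited values were fitted with lmFit, contrasts.fit and trended eBayes of limma 3.58.1 (R version 4.3.3), with 1 mean per treatment over 19 4T1 tumors, or over 39 tumors for the difference between models. P-values were adjusted by the Benjamini-Hochberg method over all 14318 genes, with a threshold of 0.05. With 5 tumors against 4, an exact permutation test of 1 value can reach 0.0159 at the lowest. The fit was tested on simulated data, in which only genes with more reads than Csf2 were changed, so that test does not cover genes with few reads.

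Named genes were the 12 higher and 12 lower genes with the smallest unadjusted p, the 5 largest differences each way, the 2 members of each list with the smallest p, the 5 genes each way with the smallest p between models, and Chil1, Chil3, Chil4, Pdcd1 and Cd274. Other list members were chosen after their values were seen. The 37 lists (16 of cell types and 21 of pathways) held 424 entries, of which 389 were measured. The tumors compared, members and lists were chosen with earlier results of these data known.

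Alternatives were dropping the lowest 25% of genes by mean, an eBayes without trend, only the compared groups, 4T1 and 66cl4 fitted together, quantile normalization, median centring, tumor weights, the tumor number as a block, limma-voom, reads thinned to 5105898 per tumor, robust eBayes and leaving out each tumor in turn. Promoter windows came from RefSeq (GRCm38.p6). Tables and figures were made in Python 3.11.15 with pandas 2.3.3, numpy 2.4.6, matplotlib 3.10.9 and scipy 1.17.1.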

Additional observations from a re-analysis of the deposited data

Results flagged for a closer look

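Of 222 groups of tumors examined over the named genes, 17 (7.66%) held a tumor whose gap to the nearest other tumor was above Dixon's 95% limit for the range of its group. That limit flags about 1 in 20 groups of unselected, normally distributed values. Since many of these genes were named by their values in these data, the shares cannot be compared. The values are on the VST scale.

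Among the treated tumors, tumor 1 was highest for Cxcl3 (8.84, next 7.15), Cxcl5 (10.11), the cytokine Osm (8.39) and adrenomedullin, Adm (8.89). Tumor 3 was highest for Mcemp1 (7.91). Tumor 5 was highest for Asns (9.01), the muscle troponin Tnni2 (9.15) and the MHC class II gene H2-Ab1 (12.39), and lowest for Hoxa6 (7.50), the keratin Krt7 (11.22) and the oxygen sensor Egln3 (9.96, next 11.26).

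Among the untreated tumors, tumor 5 was highest for F7 (7.17), Cadm1 (8.58), the T cell gene Cd6 (7.72) and the keratinization genes Sprr2a1 (11.99, next 6.46) and Krt10 (11.69, next 7.46). Tumor 4 was highest for leptin, Lep (6.29), with the other untreated tumors at 0 reads (6.05). No cause of these values was tested.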

How the results depend on the processing

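The count of 0 genes at an adjusted p of 0.05 in the main comparison was 0 in every alternative but 2, namely 1 (Csf2) with the tumor number as a block and 3 (Csf2, Evpl and Cd177) with both models in 1 fit. The block gave 1 gene for the combination against anti-PD-1 and 3 (Cyp4v3, Csf2 and Asns) for the difference between models. Same-numbered treated and untreated tumors had correlations of their deviations of 0.38, -0.20, 0.13 and 0.45 for numbers 1, 2, 4 and 5, only numbers 4 and 5 correlated best with their own, and the numbers were not taken to pair tumors. Both models in 1 fit gave 5 genes against chitin, among them Mmp8, Retnlg, Cd177 and Cxcr2, and 294 against anti-PD-1, and tumor weights gave 2127 against anti-PD-1. Leaving out single tumors gave 0 to 2 genes against chitin (2 without treated tumor 2, Retnlg and Ifitm6) and 0 to 202 against anti-PD-1 (202 without anti-PD-1 tumor 2). The cause was not tested.

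At an unadjusted p of 0.05, the 367 genes became 236 without the lowest genes and 871 with both models in 1 fit. Of 111 named genes, 98 kept their direction in all alternatives. For the 13 others, leaving out single tumors gave these ranges of the difference, which include 0. They were -1.92 to 0.058 for Sprr2a1, -0.014 to 0.22 for Ikzf2, -0.45 to 0.020 for Mzb1, -0.64 to 0.029 for Tpsb2, -0.36 to 0.19 for Mcpt4, -0.025 to 0.46 for Mb and -0.047 to 0.36 for Tnni2. For the others they were -0.51 to 0.10 for Ciita, -0.51 to 0.13 for Gbp5, -0.31 to 0.0043 for Tapbp, -0.19 to 0.022 for B2m, -0.24 to 0.034 for Aurkb and -0.28 to 0.21 for Cd274. limma-voom, on a true log2 scale, gave larger medians for lists of few reads, such as 1.44 for neutrophils. Genes with few reads, and groups of 4 and 5 tumors, limit what could be called.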

Other observations

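Gene groups of cell growth, cell death, the clock and stress had median differences near 0 between treated and untreated 4T1 tumors. Of 16 proliferation genes 7 had higher and 9 lower treated means, with a median of -0.02, but 14 of 16 were higher without treated tumor 4 and all 16 lower without treated tumor 5. Aurka, a mitotic kinase, had 161 to 384 normalized counts in treated and 183 to 359 in untreated tumors. The genes of apoptosis and p53 and of the circadian clock were split 6 higher and 6 lower each, with medians of 0.00. Of 11 immediate-early genes 5 were higher, with a median of -0.07, and of 11 genes of the unfolded protein and heat shock response 6 were higher, with a median of 0.04.

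Of 15 genes of hypoxia and glycolysis 14 had lower means, with a median of -0.04. Without treated tumor 5, 12 of the 15 were higher with a median of 0.09, and without untreated tumor 1 it was 9 of 15. Egln3, a prolyl hydroxylase that oxygen-sensitive factors induce, had 870 to 2549 against 2549 to 4845 normalized counts. Of 13 genes of cholesterol synthesis 12 had higher means, with a median of 0.10, among them Fdft1, squalene synthase, with 496 to 603 against 428 to 515. Genes of epithelial-mesenchymal transition (6 of 10 higher) and matrix metalloproteinases with their inhibitors (6 of 10 higher) had medians of 0.05 and 0.15. None of the genes in these 9 groups had an unadjusted p below 0.05.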
